A study of Homo sapiens with 9 samples.

Results

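Cadherins and catenins were followed across the MCF10A series of human breast epithelial cell lines. The members were 10 genes, chosen by symbol: the cadherins CDH1, CDH2, CDH3, CDH4, CDH11, CDH13 and CDH19 and the catenins CTNNA1, CTNNB1 and CTNND1, of 62666 genes in the deposited table. For CTNND1 the 52 transcripts of its gene identifier were also described, of 252876 transcripts in all. Polyadenylated RNA was sequenced in 3 libraries of each of 3 lines, and the study's stated interest was expression along breast cancer progression.

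MCF10A is an immortalised mammary epithelial line that does not form tumours, grown here in 5% horse serum. MCF10AT1 is an MCF10A derivative that carries an activated HRAS gene and was grown in 2.5% horse serum. MCF10Ca1a, a malignant derivative in the same lineage, was grown in 5% horse serum. All 3 lines received insulin, epidermal growth factor, hydrocortisone and cholera toxin. Each stage is represented by 1 cell line, so stage and line cannot be told apart, and in every comparison with MCF10AT1 the serum level differs as well. The labels do not say that the 3 libraries of a line came from separate cultures, so p-values measure only the spread between these libraries. In bulk RNA, fewer cells of a type and less RNA per cell cannot be told apart.

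A classical cadherin spans the plasma membrane and binds the same kind of cadherin on the neighbouring cell through calcium-dependent extracellular repeats. Inside the cell, beta-catenin (CTNNB1) binds the cadherin tail and carries alpha-catenin (CTNNA1), which links the complex to actin, while p120-catenin (CTNND1) binds nearer the membrane and slows the removal of the cadherin from the surface. In mammary epithelium, E-cadherin (CDH1) is the main cadherin of luminal cells and P-cadherin (CDH3) is found in basal and myoepithelial cells. N-cadherin (CDH2) is best known from nerve and muscle and from mesenchymal cells, and beta-catenin outside the junction also acts as a partner of TCF and LEF transcription factors.

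Library totals ran from 32.9 to 69.5 M (mega-counts) of estimated counts, with MCF10Ca1a the shallowest line (32.9 to 35.2 M). The labelled epithelial cell type was checked against 5 markers, and all 5 (KRT5, KRT8, KRT18, EPCAM and ITGB4) had a mean of at least 1 TPM (reads scaled for transcript length and library size) in each line, with summed levels of 1702 to 2379 TPM in MCF10A, 2815 to 3170 in MCF10AT1 and 2369 to 2459 in MCF10Ca1a. Of the markers of other cell types, COL3A1 (fibroblast), CDH5 (endothelium) and PTPRC (leukocyte) each stayed under 0.04 TPM in every library. Others on those lists were present, with COL1A1 (fibroblast) at 3.06 TPM in MCF10A, 0.961 in MCF10AT1 and 1.79 in MCF10Ca1a, DCN (fibroblast) at 27.9 TPM in MCF10AT1, PECAM1 (endothelium) at 18.7 TPM in MCF10Ca1a, CD68 (leukocyte) at 31.1 TPM in MCF10Ca1a and the neural marker TUBB3 at 111, 33.6 and 92.3 TPM in the 3 lines, and the part of other cell types in the results was not tested beyond these values. MCF10A replicate 1 was the highest of its line for all 9 members detected in MCF10A, in CPM, and where leaving it out changed a member's call, the value without it is given.

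The comparison of MCF10AT1 with MCF10A is called the first step here, that of MCF10Ca1a with MCF10AT1 the last step, and that of MCF10Ca1a with MCF10A the whole series. Of the 10 members, 9 passed the filter on low counts and entered edgeR's quasi-likelihood test. Its p-values were adjusted by Benjamini-Hochberg across the 17910 genes that entered, with a threshold of 0.05. CDH11 was too low to be tested. Between MCF10AT1 and MCF10A, 4 of the 9 differed: CDH4 and CDH19 were higher in MCF10AT1, and CDH3 and CDH13 were lower. Of all genes, 61.6% were called in that comparison (29.8% higher and 31.8% lower), beside 4 of 9 members. Without MCF10A replicate 1, 7 of the 9 were called, and the log2 fold changes of CDH3, CDH4 and CDH13 were -0.48, 0.76 and -0.68 (edgeR adjusted p of 3.40e-06, 1.01e-06 and 2.98e-08). Between MCF10Ca1a and MCF10AT1, 7 of the 9 differed, against 78.4% of all genes (38% higher and 40.3% lower). CDH1, CDH3 and CDH19 were higher in MCF10Ca1a, and CDH2, CDH4, CDH13 and CTNNB1 were lower. Between MCF10Ca1a and MCF10A the same 7 genes were called in the same directions, against 80.9% of all genes (39% higher and 41.9% lower). That comparison shares its libraries with the others and is not independent of them. The number of calls is not read as a result about the members, and the description that follows concerns the size of each member's change. The median log2 fold change of the 9 members was 0.02, -0.10 and -0.11 in the 3 comparisons, beside -0.0038, -0.04 and -0.05 over all genes tested. On the log2(TPM + 1) scale the median of the members was -0.105, 0.101 and -0.0144, and the median of all genes itself moved to -0.07, 0.13 and 0.06. There 1 member was called higher and 2 lower in the first comparison and 4 higher and 3 lower in the next.

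**Figure D1:**
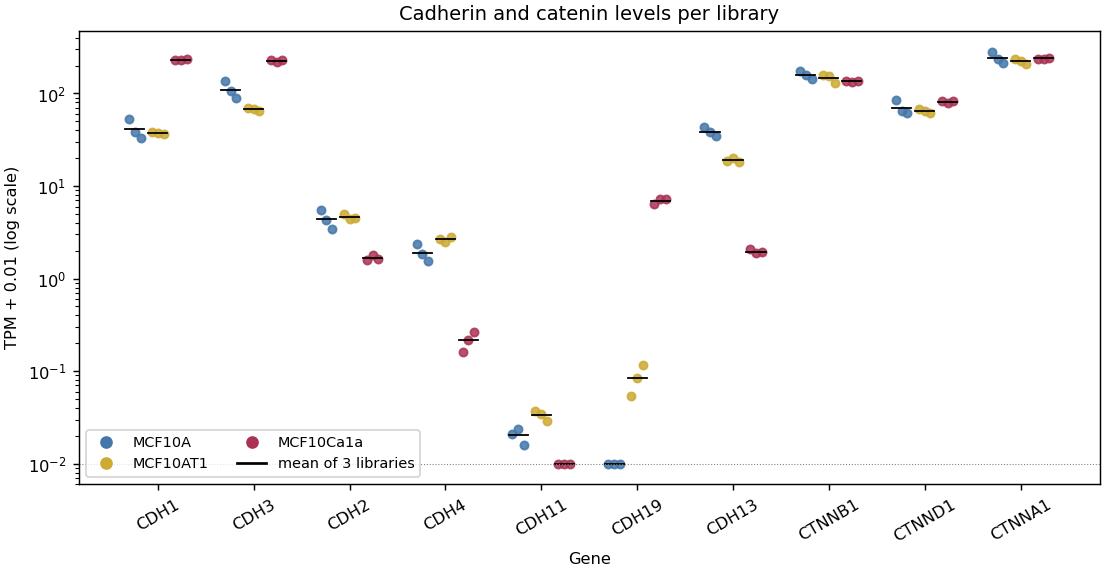
Level of each of the 10 members in TPM plus 0.01 (vertical axis, log scale) in the 9 libraries, 1 point per library, coloured by line, with a bar at the mean of 3 libraries. A value of 0 sits on the dotted line. CDH1 and CDH3 stand highest in MCF10Ca1a, CDH2, CDH4 and CDH13 lowest there, CDH19 is at 0 in MCF10A, and the 3 catenins vary least.

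E-cadherin (CDH1, ENSG00000039068.20, chr16:68737225-68835548, plus strand, on GRCh38) rose at the last step, and its difference between MCF10A and MCF10AT1 did not pass the test. It measured 173, 139 and 124 CPM (counts scaled to library size) in the 3 MCF10A libraries. The MCF10AT1 libraries had 147, 145 and 142 CPM, inside the range of MCF10A. The MCF10Ca1a libraries had 746, 731 and 770 CPM, so every malignant library lay far above every other. CDH1 was 5.17-fold higher in MCF10Ca1a than in MCF10AT1 (log2 fold change 2.37, SE 0.10, edgeR adjusted p = 4.19e-11) and 5.15-fold higher than in MCF10A (edgeR adjusted p = 2.90e-11). The difference between MCF10AT1 and MCF10A was -0.0070 on the log2 scale (SE 0.09, edgeR adjusted p = 0.959). Without MCF10A replicate 1, that difference was 0.14 and was called (edgeR adjusted p = 0.0283).

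P-cadherin (CDH3, ENSG00000062038.15, chr16:68636189-68722616, plus strand) ends 14609 bases before the start of CDH1 on the same strand. It dipped in MCF10AT1 and was highest in MCF10Ca1a. Its levels were 358, 299 and 264 CPM in MCF10A, 206, 208 and 193 CPM in MCF10AT1, and 593, 581 and 617 CPM in MCF10Ca1a. The 3 lines did not overlap. CDH3 fell 1.52-fold from MCF10A to MCF10AT1 (log2 fold change -0.60, SE 0.09, edgeR adjusted p = 4.70e-05). It was 2.95-fold higher in MCF10Ca1a than in MCF10AT1 (log2 fold change 1.56, SE 0.09, edgeR adjusted p = 1.40e-09) and 1.95-fold higher than in MCF10A (edgeR adjusted p = 1.89e-07). The neighbouring genes CDH3 and CDH1 thus both rose at the last step, but at the first step CDH3 fell while the value of CDH1 stayed within its spread.

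N-cadherin (CDH2, ENSG00000170558.10, chr18:27950966-28177446, minus strand) moved the other way from CDH1 at the last step. It had 13.4, 11.2 and 9.20 CPM in MCF10A, 13.9, 12.6 and 13.1 CPM in MCF10AT1, and 3.77, 4.37 and 3.98 CPM in MCF10Ca1a. The first 2 lines overlapped, and every MCF10Ca1a library lay below them. CDH2 was 3.27-fold lower in MCF10Ca1a than in MCF10AT1 (log2 fold change -1.71, SE 0.13, edgeR adjusted p = 2.12e-08) and 2.79-fold lower than in MCF10A (edgeR adjusted p = 9.54e-08). Between MCF10AT1 and MCF10A its difference was 0.23 (SE 0.11, edgeR adjusted p = 0.0786). Without MCF10A replicate 1 it was 0.38 and was called (edgeR adjusted p = 0.00158), and it was also called when no filter on low counts was used (0.25, edgeR adjusted p = 0.0122). Without MCF10A replicate 3 it was 0.10 (edgeR adjusted p = 0.326), and on the log2(TPM + 1) scale 0.0808 (limma adjusted p = 0.632), so its size at the first step is not settled. On the log2(TPM + 1) scale the fall from MCF10AT1 to MCF10Ca1a was smaller, at -1.08. The 5 fibroblast markers summed to 6.40 to 7.21 TPM in MCF10A, 27.5 to 31.4 in MCF10AT1 and 1.92 to 2.29 in MCF10Ca1a, most of it DCN in MCF10AT1, with COL1A2 at 0 in MCF10AT1 and MCF10Ca1a and COL3A1 at 0 in MCF10A, and their part in the CDH2 values was not tested.

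R-cadherin (CDH4, ENSG00000179242.16, chr20:61252426-61940617, plus strand), a close relative of N-cadherin, rose at the first step and fell at the last. Its levels were 13.5, 11.3 and 10.0 CPM in MCF10A, 18.0, 17.0 and 19.2 CPM in MCF10AT1, and 0.838, 0.951 and 1.16 CPM in MCF10Ca1a. No library of any line overlapped with another line. CDH4 was 1.56-fold higher in MCF10AT1 than in MCF10A (log2 fold change 0.64, SE 0.10, edgeR adjusted p = 6.62e-05), a call that was lost with limma on the log2(TPM + 0.1) scale (0.48, adjusted p = 0.057). It was 18.4-fold lower in MCF10Ca1a than in MCF10AT1 (log2 fold change -4.20, SE 0.15, edgeR adjusted p = 8.31e-12) and 11.8-fold lower than in MCF10A (edgeR adjusted p = 3.82e-11). With log2(TPM + 1) values both falls were smaller, at -1.60 and -1.26, since 1 TPM is above the level of CDH4 in MCF10Ca1a.

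Cadherin-19 (CDH19, ENSG00000071991.9, chr18:66501083-66604138, minus strand), a type II cadherin known from Schwann cell precursors and melanocytes, was not detected in MCF10A. It had 0 counts in all 3 MCF10A libraries, and 3 counts in each would be 0.0454 CPM. In MCF10AT1 it reached 0.135, 0.166 and 0.338 CPM, and in MCF10Ca1a 14.2, 15.1 and 15.1 CPM. Against that floor CDH19 was at least 4.70-fold higher in MCF10AT1 than in MCF10A (edgeR adjusted p = 4.11e-05) and at least 327-fold higher in MCF10Ca1a (edgeR adjusted p = 1.80e-11). From MCF10AT1 to MCF10Ca1a it rose 69.6-fold (log2 fold change 6.12, SE 0.20, edgeR adjusted p = 7.33e-11). With limma on the log2(TPM + 1) scale the difference between MCF10AT1 and MCF10A was 0.10 and was not called (adjusted p = 0.202), and the rise from MCF10AT1 to MCF10Ca1a was smaller, at 2.89. Of the 5 neural and Schwann cell markers, SOX10 was listed at 0 in every MCF10Ca1a library, while TUBB3 was abundant in all lines (at least 31.2 TPM). A mean of at least 1 TPM was reached by 2 markers in MCF10Ca1a and by 1 in each other line. The 2 tested were both called lower at the first step (median -1.58) and both higher at the last (median 2.57). At the last step TUBB3 rose by 1.16, less than the other tested marker. Over the series 1 was higher and 1 lower. The part of these markers in the CDH19 values was not tested.

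Cadherin-11 (CDH11, ENSG00000140937.14, chr16:64943753-65126112, minus strand), a cadherin of mesenchymal cells and osteoblasts, was at the edge of detection everywhere. It had 3, 3 and 1 counts in MCF10A, 7, 6 and 4 counts in MCF10AT1 and 0 counts in every MCF10Ca1a library. Scaled by library totals, MCF10AT1 had 2.47 times the level of MCF10A, with a 95% exact interval from 0.975 to 7.06 for counting error only. MCF10Ca1a, with 0 counts against 17 in MCF10AT1, lay below it in every library, and the exact interval puts its level at no more than 0.451 times that of MCF10AT1. Against the coarser floor of 3 counts per library, as used for CDH19, MCF10Ca1a was only at least 1.01-fold lower than MCF10AT1. Against the 7 counts of MCF10A the same interval reaches 1.31 times, so a difference from MCF10A was not detectable at this depth. These values compare summed counts of the libraries and are no test across replicates. The floors, too, cover counting error only, since copies made by PCR cannot be told from separate molecules.

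T-cadherin (CDH13, ENSG00000140945.17, chr16:82626803-83800640, plus strand) differs from the other members in that it has no cytoplasmic tail, is held in the membrane by a lipid anchor and does not bind catenins. It fell at both steps. Its levels were 111, 100 and 88.7 CPM in MCF10A, 59.8, 59.9 and 57.3 CPM in MCF10AT1, and 4.83, 5.17 and 5.22 CPM in MCF10Ca1a. The 3 lines were fully separate. CDH13 was 1.69-fold lower in MCF10AT1 than in MCF10A (log2 fold change -0.76, SE 0.07, edgeR adjusted p = 4.16e-07). It was 11.6-fold lower in MCF10Ca1a than in MCF10AT1 (log2 fold change -3.54, SE 0.09, edgeR adjusted p = 4.86e-13) and 19.7-fold lower than in MCF10A (edgeR adjusted p = 4.42e-14). CDH1, CDH3, CDH11 and CDH13 all lie on the long arm of chromosome 16, where at the last step CDH1 and CDH3 rose and CDH13 fell.

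**Figure D2:**
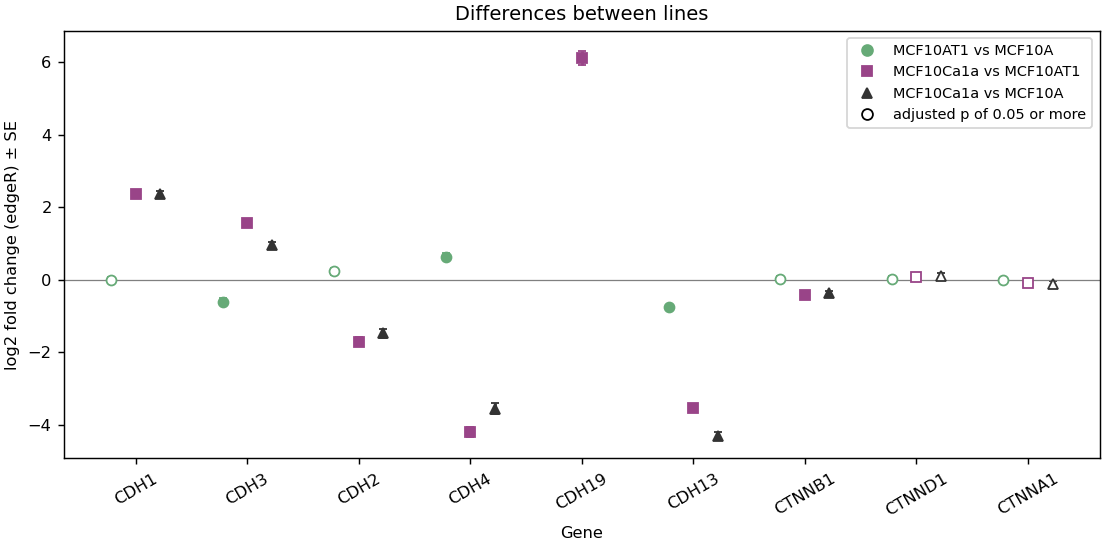
Log2 fold change of the 9 tested members in each of the 3 comparisons (vertical axis; points with bars of 1 SE, open where the edgeR adjusted p was 0.05 or more). At the last step CDH1 (2.37), CDH3 (1.56) and CDH19 (6.12) lie above 0 and CDH2, CDH4 and CDH13 below, the catenins lie near 0, and CDH19 against MCF10A is not drawn because MCF10A has 0 counts.

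The sequences before the annotated starts of CDH2, CDH4 and CDH19 are shown because these cadherins fell or rose most in the malignant line among the members with an entry. They are the first listed promoter of each gene in RefSeq (GRCh38.p14), as the 250 bases before the start, 5′ to 3′ on the gene's strand. For CDH2 and CDH19 that start lies 316 and 48 bases inside the outer edge of the gene as GENCODE 29 draws it. For CDH4 it lies 246995 bases inside the gene, so the CDH4 sequence precedes an internal start and not the outermost one. Promoter entries were matched for 5 of the 10 members, with 10 promoters in all, and none was matched for CDH1, CDH3, CDH11, CDH13 or CTNND1. Capitals mark the E-box letters CACCTG or its reverse complement CAGGTG, searched on both strands, which are the letters known to be bound by SNAI and ZEB repressors.
CDH2, chr18:28177131-28177380, minus strand: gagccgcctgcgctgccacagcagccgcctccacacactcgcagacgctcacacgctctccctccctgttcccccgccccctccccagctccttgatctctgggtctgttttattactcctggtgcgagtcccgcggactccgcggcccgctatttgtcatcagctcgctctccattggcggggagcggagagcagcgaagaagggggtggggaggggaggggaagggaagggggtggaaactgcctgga
CDH4, chr20:61499171-61499420, plus strand: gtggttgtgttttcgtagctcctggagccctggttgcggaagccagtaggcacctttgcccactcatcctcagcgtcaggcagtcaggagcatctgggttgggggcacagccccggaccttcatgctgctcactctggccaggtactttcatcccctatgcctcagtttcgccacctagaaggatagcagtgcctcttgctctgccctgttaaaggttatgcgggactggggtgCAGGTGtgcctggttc
CDH19, chr18:66604091-66604340, minus strand: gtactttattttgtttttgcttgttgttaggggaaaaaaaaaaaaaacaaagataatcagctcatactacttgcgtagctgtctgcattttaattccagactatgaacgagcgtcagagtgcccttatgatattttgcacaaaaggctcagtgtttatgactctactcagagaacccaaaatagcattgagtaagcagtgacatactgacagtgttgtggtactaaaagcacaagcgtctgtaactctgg
These E-box letters occur at 1 place in the CDH4 sequence, before that internal start, and in none of the other 9 member promoters, and 17.5% of 35116 RefSeq promoters of this length hold them. G and C made up 66% of the CDH2 sequence, 58.4% of the CDH4 sequence and 38.0% of the CDH19 sequence, beside a median of 58.0% over all promoters. Which annotated start the cells used was not measured here, and binding was not measured.

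Most of the cadherin message in every line was CDH3 and CDH1, and the balance between them differed between the lines. For the 6 members with a catenin-binding tail (CDH1, CDH2, CDH3, CDH4, CDH11 and CDH19), levels were added on the TPM scale, which is per length and lets genes be set side by side. Their sum was 158 ± 34.9 TPM (SD, n = 3) in MCF10A, 112 ± 4.39 in MCF10AT1 and 467 ± 11.1 in MCF10Ca1a. Every MCF10Ca1a library (457 to 479 TPM) exceeded every other, the next highest being MCF10A replicate 1 at 196 TPM, with the other MCF10A libraries at 150 and 127 TPM. CDH3 held 69.8% of this sum in MCF10A, 60.2% in MCF10AT1 and 48.6% in MCF10Ca1a (SD 0.389 to 0.613, n = 3). CDH1 held 26.3%, 33.3% and 49.6% (SD 0.254 to 0.658, n = 3). The CDH1 to CDH3 ratio of TPM went from 0.376 ± 0.0127 in MCF10A to 0.553 ± 0.00869 in MCF10AT1 and 1.02 ± 0.0134 in MCF10Ca1a (SD, n = 3), with no overlap between lines. P-cadherin was thus the main cadherin transcript of MCF10A and MCF10AT1, and in MCF10Ca1a the E-cadherin and P-cadherin transcripts were about equal.

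N-cadherin was a small part of the pool in every line. CDH2 made up 2.78% of the 6-gene sum in MCF10A, 4.14% in MCF10AT1 and 0.357% in MCF10Ca1a, and CDH4 1.21%, 2.37% and 0.0438%. CDH19 made up 0.0673% in MCF10AT1 and 1.49% in MCF10Ca1a, where it exceeded CDH2. Of CDH1 and CDH2 together, CDH2 held 9.36%, 10.1% and 9.24% of TPM in the MCF10A libraries. It held 11.5%, 10.7% and 11.1% in the MCF10AT1 libraries and 0.678%, 0.788% and 0.680% in the MCF10Ca1a libraries. The difference in mean share was thus 1.5 percentage points in MCF10AT1 against MCF10A and -10.4 points in MCF10Ca1a against MCF10AT1. In each comparison the libraries did not overlap, and the exact permutation test over libraries, two-sided, gave p = 0.1, the smallest p that 3 against 3 can give. For MCF10Ca1a against MCF10A the difference was -8.85 points (exact permutation p = 0.1).

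**Figure D3:**
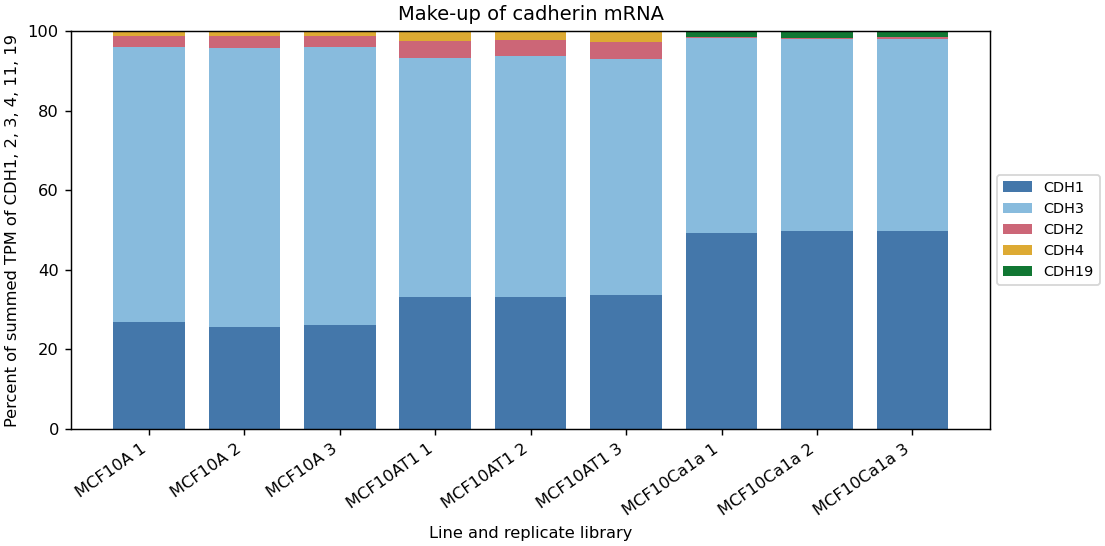
Share of each cadherin in the summed TPM of CDH1, CDH2, CDH3, CDH4, CDH11 and CDH19 (vertical axis, percent, from 0), as 1 stacked bar per library (CDH11 is too low to be seen). CDH3 takes a mean of 69.8% in MCF10A and 48.6% in MCF10Ca1a, CDH1 goes from 26.3% to 49.6%, and CDH2, CDH4 and CDH19 are thin slices.

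Ordered by mean TPM, CTNNA1, CTNNB1 and CDH3 led in MCF10A at 243, 158 and 110 TPM, followed by CTNND1 at 70.3, CDH1 at 41.5 and CDH13 at 38.7 TPM. The ranges of CDH1 and CDH13 overlapped, and CDH2 (4.39 TPM), CDH4 (1.90 TPM), CDH11 and CDH19 came after them. In MCF10AT1 the order was CTNNA1 (223 TPM), CTNNB1 (148 TPM), CDH3 (67.4 TPM), CTNND1 (64.7 TPM), CDH1 (37.2 TPM), CDH13 (18.9 TPM), CDH2 (4.64 TPM) and CDH4 (2.65 TPM), with CDH3 and CTNND1 overlapping. In MCF10Ca1a, CTNNA1 (239 TPM), CDH1 (231 TPM) and CDH3 (227 TPM) overlapped with their neighbours in the order. They were followed by CTNNB1 (135 TPM), CTNND1 (81.6 TPM), CDH19 (6.96 TPM), CDH13 (1.95 TPM), CDH2 (1.67 TPM) and CDH4 (0.205 TPM). CDH1 thus came after all 3 catenins in MCF10A and MCF10AT1, and in MCF10Ca1a it stood beside alpha-catenin and above beta-catenin.

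Alpha-catenin (CTNNA1, ENSG00000044115.21, chr5:138610967-138935034, plus strand) was the most abundant member in every line by mean TPM. It had 712, 614 and 575 CPM in MCF10A, 652, 636 and 598 CPM in MCF10AT1, and 582, 584 and 595 CPM in MCF10Ca1a. The MCF10Ca1a libraries lay within the MCF10A range and below every MCF10AT1 library. None of its 3 differences passed the test on the deposited counts, with log2 fold changes of -0.01, -0.10 (SE 0.07) and -0.11 (SE 0.07) and edgeR adjusted p of 0.908, 0.231 and 0.179. It was called lower in MCF10Ca1a than in MCF10AT1 on the length-scaled counts (-0.19), the scaled counts (-0.18) and with no filter (-0.19), but was 0.10 higher on the log2(TPM + 1) scale, so no direction is given for it at that step. Over the series it was called lower on the same 3 (-0.18, -0.17 and -0.19, edgeR adjusted p of 0.0273, 0.0361 and 0.018) and was -0.0144 on the log2(TPM + 1) scale (limma adjusted p = 0.893). On the deposited counts it was also called lower at the last step without MCF10A replicate 1 (-0.11, edgeR adjusted p = 0.0278) and over the series without MCF10A replicate 3 (-0.19, edgeR adjusted p = 0.0177).

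Beta-catenin (CTNNB1, ENSG00000168036.18, chr3:41194741-41260096, plus strand) was lower in the malignant line. It had 360, 351 and 334 CPM in MCF10A, 377, 370 and 322 CPM in MCF10AT1, and 267, 266 and 274 CPM in MCF10Ca1a, so the MCF10Ca1a libraries lay below all others. The fall was 1.33-fold from MCF10AT1 (log2 fold change -0.41, SE 0.06, edgeR adjusted p = 4.97e-05) and 1.30-fold from MCF10A (-0.38, SE 0.06, edgeR adjusted p = 9.93e-05). On the log2(TPM + 1) scale the fall from MCF10AT1 was -0.13 and was not called by limma (adjusted p = 0.175), and with no filter on that scale the fall from MCF10A was not called either (-0.22, limma adjusted p = 0.0692). The ratio of CTNNB1 to the summed 6 cadherins was 1.02 ± 0.124 in MCF10A, 1.32 ± 0.0877 in MCF10AT1 and 0.289 ± 0.00477 in MCF10Ca1a (SD, n = 3), both in TPM. The 3 lines did not overlap in this ratio, which was 0.883 in MCF10A replicate 1 and 1.05 and 1.12 in the other MCF10A libraries. The summed TPM of the 3 catenins was 471 ± 61.8, 436 ± 31.7 and 456 ± 7.10 (SD, n = 3), and here the lines overlapped.

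The gene p120-catenin (CTNND1, ENSG00000198561.16, chr11:57753243-57819546, plus strand) had no difference that passed the test on the deposited counts with all 3 lines in the fit. It had 295, 241 and 231 CPM in MCF10A, 264, 261 and 256 CPM in MCF10AT1, and 275, 268 and 281 CPM in MCF10Ca1a. All MCF10Ca1a libraries lay within the MCF10A range. Its log2 fold changes were 0.02, 0.08 (SE 0.08) and 0.10 (SE 0.08), with edgeR adjusted p of 0.815, 0.366 and 0.24. Its libraries did not overlap between MCF10Ca1a and MCF10AT1, and it was called higher in MCF10Ca1a there when only those lines were fitted (0.0932, edgeR adjusted p = 0.0229). With limma on the log2(TPM + 1) scale it was also called higher in MCF10Ca1a than in MCF10AT1 (0.33, adjusted p = 0.0116), and without MCF10A replicate 1 it was called higher in MCF10AT1 (0.14, edgeR adjusted p = 0.0103) and in MCF10Ca1a (0.20, edgeR adjusted p = 0.000456) than in MCF10A. GENCODE 29 lists a readthrough gene, TMX2-CTNND1, over the same exons. The CTNND1 counts were not whole numbers in any of the 9 libraries, within 0.01, whereas all 81 values of the other 9 members were, so its level is uncertain where reads were divided between gene models.

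p120-catenin is made in several forms that differ in where translation starts. GENCODE 29 (GRCh38) gives 4 start codons on the plus strand of chromosome 11, and the form from the most upstream start, isoform 1, is the long form known from mesenchymal cells, while isoform 3, from the third, is known from epithelial cells. The first 30 spliced coding bases from each start are shown, with the start codon in capitals, because the transcripts were grouped by them.
Start 1, chr11:57791479-57791481: ATGgacgactcagaggtggagtcgaccgcc
Start 2, chr11:57791641-57791643: ATGgccaacggcacactcacccgccggcat
Start 3, chr11:57795613-57795615: ATGcaggagccggggcagattgtggagacc
Start 4, chr11:57801746-57801748: ATGattggtgaggaggtgccatcggatcaa
The longest annotated coding sequence from start 1 has 968 codons, and those from starts 2, 3 and 4 have 54, 101 and 323 codons fewer. Of the 52 deposited CTNND1 transcripts, 36 are in GENCODE 29, and 9 of these begin at start 1, 9 at start 2, 8 at start 3 and 6 at start 4. The other 16 were not placed, and 19 of the 52 were at 0 in every library.

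Transcripts from start 3 carried most of the CTNND1 message in every line: 58.2 ± 2.72% of TPM in MCF10A, 61.4 ± 2.74% in MCF10AT1 and 62.5 ± 2.66% in MCF10Ca1a (SD, n = 3). Transcripts from start 1 were a small share. They held 5.31, 3.86 and 4.67% of TPM in the MCF10A libraries. In MCF10AT1 they held 1.19, 2.09 and 0.780%, and in MCF10Ca1a 2.81, 1.94 and 1.30%. All MCF10A libraries lay above all libraries of the other lines, which overlapped with each other. The difference in mean share was -3.26 percentage points in MCF10AT1 against MCF10A and -2.59 points in MCF10Ca1a against MCF10A (exact permutation test, two-sided, p = 0.1 for each, the smallest possible). It differed by 0.666 points between MCF10Ca1a and MCF10AT1 (exact permutation p = 0.4), a value that ran from 0.27 without MCF10Ca1a replicate 1 to 1.03 without MCF10AT1 replicate 2 and was 1.02 without MCF10Ca1a replicate 3 and 0.38 without MCF10AT1 replicate 3. With estimated counts in place of TPM the 3 differences were -4.22, -4.01 and 0.205 points. Transcripts that GENCODE 29 does not list took 30.1 ± 0.646%, 32.7 ± 2.34% and 32.2 ± 2.80% of TPM (SD, n = 3), so the start codon of this share of the message is not known here. Assignment of reads between transcripts carries an uncertainty that the deposited values do not give.

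**Figure D4:**
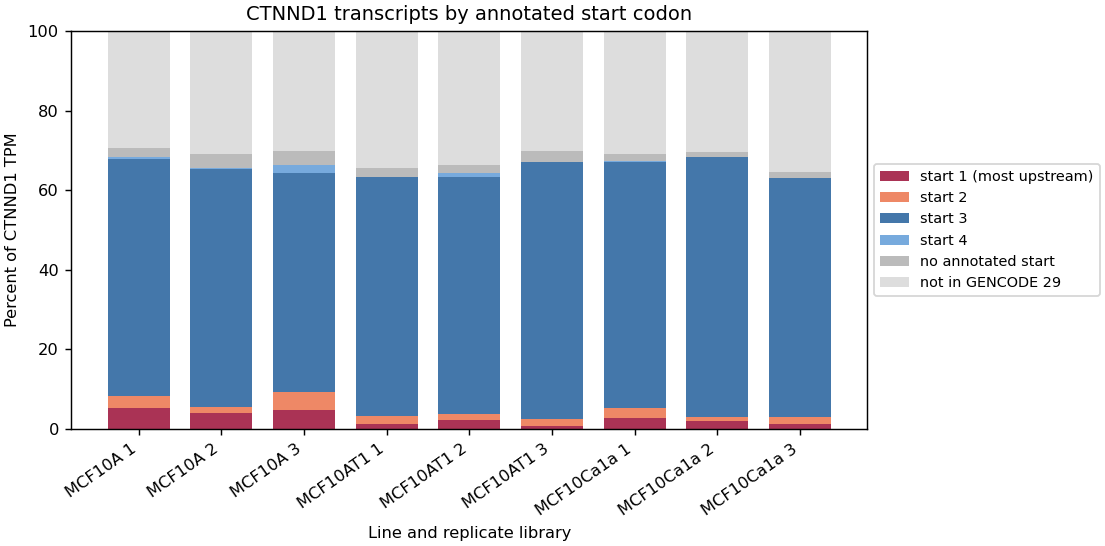
Share of CTNND1 TPM (vertical axis, percent) by the annotated start codon of its transcripts, as 1 stacked bar per library. Start 3 takes 58.2 to 62.5% in the line means and the transcripts not in GENCODE 29 take 30.1 to 32.7%, while start 1 is taller in MCF10A (3.86 to 5.31%) than in the other lines.

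The single transcript that carried most of the CTNND1 message was ENST00000529986.5, a start 3 transcript with 39.1%, 40.4% and 39.0% of TPM in MCF10A, MCF10AT1 and MCF10Ca1a. Another 4 transcripts reached 5% in at least 1 line, and none of these 5 passed the test on its share in any comparison by limma, which was fitted to the log2 ratio between each transcript and all others of the gene. That does not show equal shares: ENST00000532245.5, from start 3, held 4.54, 4.56 and 5.18% in MCF10A and 6.05, 7.07 and 7.43% in MCF10AT1, with no overlap (log2 ratio change 0.51, SE 0.15, limma adjusted p = 0.0874). Of the 10 CTNND1 transcripts tested, 1 was called between MCF10AT1 and MCF10A (6.27% of all transcripts tested were called), 1 between MCF10Ca1a and MCF10AT1 (29.2%) and 2 between MCF10Ca1a and MCF10A (35.1%). The following transcripts are under 5% and are named after their values were seen. ENST00000428599.6, from start 1, fell from MCF10A to MCF10AT1 (log2 ratio change -2.14, SE 0.44, limma adjusted p = 0.0303) and to MCF10Ca1a (-3.07, SE 0.44, limma adjusted p = 0.00129), with 4.82, 3.61 and 4.23% of TPM in the MCF10A libraries, 0, 1.86 and 0% in MCF10AT1 and 0% in every MCF10Ca1a library. Its call at the first step was lost with pseudocount 0.05, on transcript counts, with the replicate block, with only the lines compared, and without any 1 of the MCF10A libraries or of MCF10AT1 replicates 1 and 3. ENST00000527599.1, a short transcript with a retained intron, was lower in MCF10Ca1a than in MCF10AT1 (-0.79, SE 0.23, limma adjusted p = 0.0341) and MCF10A (-0.95, limma adjusted p = 0.0142), and the former call was lost with pseudocount 0.05, on transcript counts, with the replicate block, and without MCF10AT1 replicate 2 or 3 or MCF10Ca1a replicate 2. Another start 1 transcript, ENST00000526938.5, was listed at 0 in MCF10A and held 2.77, 1.66 and 1.09% in MCF10Ca1a. The start 1 share was thus assigned to different transcripts in those lines. ENST00000526938.5 did not enter the test, and whether reads shared by these transcripts were divided differently was not tested.

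Related genes were described by lists chosen with earlier results of these data known, so their counts are given as descriptions. Besides the members, 16 other cadherins were listed and 6 could be tested. In MCF10AT1 against MCF10A 1 was higher and 2 were lower, and in MCF10Ca1a 3 were higher and 2 lower against either other line, so 50%, 83.3% and 83.3% of those tested were called, beside 61.6%, 78.4% and 80.9% of all genes. CDH24, a type II cadherin, was the called gene with enough counts to name. It was -0.27 (SE 0.10, edgeR adjusted p = 0.0267) in MCF10AT1 against MCF10A, a call lost on the scaled counts, and -3.26 (SE 0.14, edgeR adjusted p = 8.76e-11) in MCF10Ca1a against MCF10AT1. On the scaled counts only 3 of these genes entered the test, and 0, 3 and 3 of them were called in the 3 comparisons.

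The atypical cadherins, large FAT, DCHS and CELSR proteins that work in planar polarity and growth control, had more members lower than higher in MCF10Ca1a against either other line. Of 7 tested, 2 were higher and 4 lower in MCF10AT1 against MCF10A, and 2 were higher and 5 lower in MCF10Ca1a against either line, beside 31.8%, 40.3% and 41.9% of all genes called lower. The median log2 fold changes were -0.19, -0.61 and -0.61, beside -0.0038, -0.04 and -0.05 over all genes. FAT4 fell most at the first step (-1.16, SE 0.09, edgeR adjusted p = 9.83e-08) and CELSR1 at the last (-1.50, SE 0.09, edgeR adjusted p = 1.35e-09). FAT2 fell most over the whole series (-2.57, SE 0.08, edgeR adjusted p = 1.61e-12). CELSR3 rose most in each comparison, by 0.61, 0.69 and 1.30, the first of which was not called on the log2(TPM + 1) scale. On that scale 0 were higher and 4 lower at the first step and 1 higher and 5 lower at the last. On the length-scaled and the scaled counts 2 were higher and 2 lower at the first step, so the split there turned on the table used, and on the scaled counts, where 6 were tested, 1 was higher and 5 lower in each other comparison.

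Among the catenin relatives, ARVCF, a p120-catenin family protein, rose in each comparison, by 1.45 (SE 0.11, edgeR adjusted p = 5.85e-08), 1.05 (SE 0.10, edgeR adjusted p = 2.57e-07) and 2.49 (SE 0.11, edgeR adjusted p = 5.05e-11). PKP4, another p120 family protein, fell by 0.30 on the log2 scale at the first step and by 0.98 over the series (edgeR adjusted p = 0.000347 and 1.11e-09). CTNNAL1, an alpha-catenin relative, rose at the first step (1.06, SE 0.05, edgeR adjusted p = 1.29e-09) and fell most of the list at the last (-0.81, SE 0.05, edgeR adjusted p = 7.37e-09), and it was still higher in MCF10Ca1a than in MCF10A (0.25, edgeR adjusted p = 0.000747). Of the 5 tested, 3 were higher and 1 lower at the first step, 3 higher and 2 lower at the last, and 4 higher and 1 lower over the series, with medians of 0.26, 0.52 and 0.77. That is 80%, 100% and 100% of them called, beside 61.6%, 78.4% and 80.9% of all genes. On the log2(TPM + 1) scale the medians were smaller, at 0.145, 0.381 and 0.379. There 2 were higher and 1 lower at the first step, and the other splits were unchanged.

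Of 11 adherens junction partners (nectins, afadin, vinculin, alpha-actinins and linkers), 4 were higher and 3 lower in MCF10AT1 against MCF10A, with 2 higher and 4 lower on the log2(TPM + 1) scale. In MCF10Ca1a 6 were higher and 2 lower against MCF10AT1 and 7 higher and 3 lower against MCF10A, with medians of 0.43 and 0.62, beside 38% and 39% of all genes higher and 40.3% and 41.9% lower. The share called in either direction was 63.6%, 72.7% and 90.9%, beside 61.6%, 78.4% and 80.9% of all genes. Nectins, the immunoglobulin-like adhesion receptors that join cadherins at the junction, differed among themselves. NECTIN1 fell most at the first step (-1.07, SE 0.09, edgeR adjusted p = 2.46e-07) and NECTIN3 at the last (-2.01, SE 0.07, edgeR adjusted p = 8.87e-12). NECTIN4 rose most at the last step (1.65, SE 0.11, edgeR adjusted p = 4.20e-09), and NECTIN2 over the whole series (1.98, SE 0.09, edgeR adjusted p = 8.03e-11). ACTN4, an actin cross-linker, rose most at the first step (0.96, SE 0.09, edgeR adjusted p = 1.05e-06).

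Genes of cadherin processing and turnover (sheddases, convertases, the E3 ligase CBLL1 and trafficking factors) were described next, and PTPRM had the largest fall among them. Of 8 tested, 2 were higher and 3 lower at the first step, 1 higher and 5 lower at the last, and 2 higher and 5 lower over the series. The share called, 62.5%, 75% and 87.5%, was close to that of all genes (61.6%, 78.4% and 80.9%). With log2(TPM + 1) values the splits were 0 and 3, 4 and 2, and 4 and 2, so the direction of the list at the last step and over the series turned with the scale. On the length-scaled and the scaled counts they were 1 and 3, 1 and 3, and 2 and 3. PTPRM, a homophilic receptor phosphatase that binds cadherin complexes, fell by 1.45 on the log2 scale at the last step (SE 0.06, edgeR adjusted p = 1.01e-10) and by 1.80 over the series (edgeR adjusted p = 7.64e-12). The rise of ADAM10, the main E-cadherin sheddase, was 0.20 at the first step (edgeR adjusted p = 0.0359) and was not called on the length-scaled counts, the scaled counts or the TPM scale.

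Of 13 tested genes that break down beta-catenin or act with it in the nucleus, 3 were higher and 6 lower at the first step, 7 higher and 5 lower at the last, and 8 higher and 5 lower over the series. The share called was 69.2%, 92.3% and 100%, beside 61.6%, 78.4% and 80.9% of all genes. The TCF and LEF factors, the DNA-binding partners of beta-catenin, moved in opposite directions. TCF7 rose by 2.80 (SE 0.08, edgeR adjusted p = 1.80e-12) at the first step and was 3.29 higher over the series (edgeR adjusted p = 1.18e-13). LEF1 fell by 0.88 on the log2 scale at the first step (SE 0.14, edgeR adjusted p = 7.50e-05) and by 3.10 over the series (edgeR adjusted p = 1.41e-09). TCF7L1 fell most at the last step (-2.99, SE 0.23, edgeR adjusted p = 3.51e-08), where BCL9, a nuclear co-factor, rose most (1.78, SE 0.08, edgeR adjusted p = 1.75e-10). On the log2(TPM + 1) scale 2 were higher and 5 lower, 7 higher and 3 lower, and 8 higher and 3 lower.

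**Figure D5:**
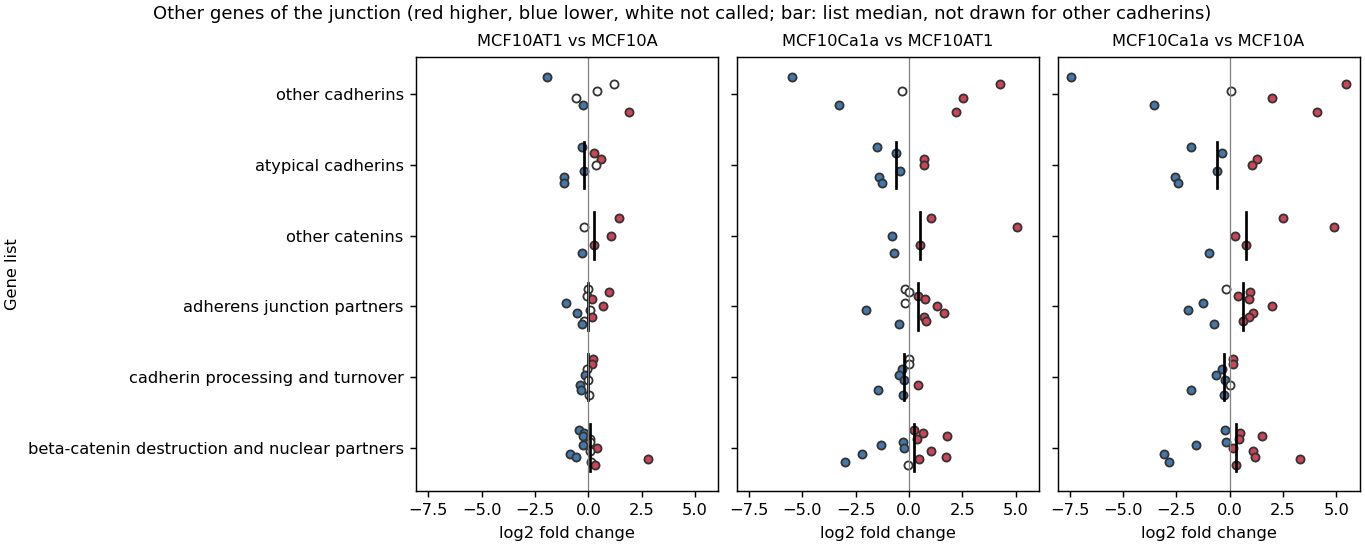
Log2 fold change of each tested gene of the 6 related lists (horizontal axis) in the 3 comparisons, 1 point per gene, red where higher and blue where lower at an edgeR adjusted p under 0.05 and white otherwise, with a bar at the median of the list. Atypical cadherins lie mostly to the left, with medians of -0.19 to -0.61, and other catenins mostly to the right, with medians of 0.26 to 0.77. Some points of the other cadherins rest on 0 counts in a line and depend on the prior count, so no median is drawn for them.

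The gene whose profile over the 9 libraries was most like that of CDH1, among 12620 genes, was KLC4 on chromosome 6, with a root mean square difference of 0.08 on the centred log2 CPM scale. GLG1 (0.09) and ZNF778 (0.11), both on chromosome 16, came next. GLG1 had 131 ± 23.7 CPM in MCF10A, 125 ± 2.10 in MCF10AT1 and 578 ± 12.9 in MCF10Ca1a (SD, n = 3), beside 145 ± 25.2, 145 ± 2.77 and 749 ± 19.7 CPM for CDH1. For CDH2 they were CYP27B1 (0.10), CTDSPL (0.11) and IQCK (0.12). CYP27B1 had 31.4, 35.8 and 11.7 CPM in the 3 lines, beside 11.3, 13.2 and 4.04 CPM for CDH2.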

How the data were processed

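Polyadenylated RNA of 9 libraries, 3 per line, was measured with a stranded kit, per the labels. The authors deposited estimated counts and TPM per gene and per transcript, and 2 gene tables of length-scaled and scaled estimated counts. The submitters' processing notes name Salmon and hg38, and their versions, settings and annotation are not given in the sources used here. The members and gene lists were chosen with earlier results of these data known.

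Estimated counts were rounded to whole numbers and genes were kept with filterByExpr by line (minimum count 10, minimum total 15). The test was edgeR 4.0.16 (glmQLFit and glmQLFTest, TMM, R 4.3.3) with all 9 libraries in 1 fit, no block and Benjamini-Hochberg adjustment over 17910 genes. SEs were derived as fold change over the root of F, and CPM uses TMM-scaled totals. TMM factors ran from 0.978 to 1.02. Transcript shares were tested with limma 3.58.1 on log2 ratios of TPM (pseudocount 0.5, minimum 1 TPM in 3 libraries), and single shares with exact permutation tests (scipy 1.17.1). These fits were also run on simulated data, where the transcript share test missed most of the changes planted. No replicate pair held identical values, and chi-square per degree of freedom over genes ran from 2.51 to 74.8. It was 11.6 to 74.8 in MCF10A, 3.61 to 17.1 in MCF10AT1 and 2.51 to 4.41 in MCF10Ca1a. The 3 lines shared 1 estimate of the spread, so the MCF10A libraries also enter the p-values of the last step. Same-numbered libraries of different lines did not deviate together, so the numbers were not used to pair them.

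All members were named. Of other lists, the gene that rose and the gene that fell most per comparison were named, with a mean of at least 100 counts in a line. Some results that this rule names are not reported here. For CDH1 and CDH2 the 3 most alike genes were named, and for CTNND1 the transcripts with at least 5% of its TPM in a line. Positions are from GENCODE 29 on GRCh38, and promoters from RefSeq GRCh38.p14. Alternatives were DESeq2 1.42.0 (size factors and Wald test), no filter, the other count tables, TPM with pseudocounts 1 and 0.1, a replicate block, fits of the compared lines alone, and leaving out each library.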

Additional observations from a re-analysis of the deposited data

How the results depend on the processing

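The log2 fold changes of CDH1, CDH2, CDH3, CDH4, CDH13 and CDH19 at the last step and over the series, and of CDH3 and CDH13 at the first step, kept their direction and their call under every alternative run. Over all alternatives, 468 of the summary values were counts that stayed within 1.5 times or share differences that kept their sign, and 30 counts moved by more. Of the single-gene values, 464 kept their direction and call, 16 gained a call (CDH2, CTNNA1 or CTNND1), 8 lost it (CDH4 and CDH19 at the first step, CTNNB1 at the last step or over the series, all on TPM scales), and 24 changed sign, all of them small differences of CDH1 or a catenin. Of those 24, CDH1 at the first step without MCF10A replicate 1 also gained a call. The cause of each change was not tested.

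In MCF10AT1 against MCF10A, CDH1 was 0.0058 with no filter, 0.0215 with only the lines compared and -0.11 to 0.139 with a library left out. CTNNA1 was 0.0012 with no filter, 0.010 on length-scaled and 0.0099 on scaled counts, 0.0163 with only the lines compared and -0.0782 to 0.0813 with a library left out. CTNNB1 was -0.0914 on log2(TPM + 1), with and without a filter, -0.092 on log2(TPM + 0.1), and -0.0069 to 0.10 with a library left out. CTNND1 was -0.11 on these TPM scales and -0.0456 to 0.139 with a library left out. In MCF10Ca1a against MCF10AT1, CTNND1 was -0.0099 with no filter and CTNNA1 0.10 on the TPM scales.

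Of the members, 2 were called in MCF10AT1 against MCF10A on log2(TPM + 1) with no filter, and 4 to 7 with a library left out, 7 without MCF10A replicate 1. Of the other cadherins, 0, 3 and 3 were called on the scaled counts, where only 3 entered the test, and of the atypical cadherins 2 at the first step on log2(TPM + 1) with no filter. Of the processing genes at the first step, 3 were called on log2(TPM + 1) and log2(TPM + 0.1), 2 with no filter, and 2 to 5 with a library left out, 2 without MCF10A replicate 2 and 3 without MCF10AT1 replicate 2. Of the CTNND1 transcripts, 0 were called by limma at the first step with pseudocount 0.05, on transcript counts or with only the lines compared (2, 2 and 3 at an unadjusted p under 0.05), and 0 to 1 with a library left out. At the last step 0 were called with pseudocount 0.05 or on transcript counts (3 and 3 unadjusted), 5 with a minimum of 0.1 TPM, and 0 to 2 with a library left out. Over the series 7 were called with a minimum of 0.1 TPM. With that minimum 27 CTNND1 transcripts entered the test in each comparison, in place of 10.

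Same-numbered libraries of different lines had correlations of their deviations from -0.06 to 0.05, and in 3 of 18 checks a library correlated best with its own number, so the numbers give no pairing. With the replicate number as a block, 4, 7 and 7 members were called, as without it. Under the block CDH1 was 0.0015 at the first step, and 0, 0 and 2 CTNND1 transcripts were called by limma (2, 3 and 3 unadjusted). CDH11 in all lines, and CDH19 in MCF10A and MCF10AT1, rest on few counts.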

Other observations

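Genes close to the members on the genome were counted after the results had been seen, and are given as values. In MCF10Ca1a against MCF10AT1, 13 of the 18 tested genes within 500 kb of CDH3 were called higher and 0 lower by edgeR, with a median log2 fold change of 0.65. Within 500 kb of CDH1, which overlaps that window, 12 of 20 were higher and 1 lower, with a median of 0.47. Over all genes tested, 38% were called higher and 40.3% lower in that comparison. Around CDH13, further along the same arm of chromosome 16, 6 of 10 neighbours were higher and 3 lower, while CDH13 itself fell. Around CDH4 on chromosome 20, 8 of 15 neighbours were higher and 1 lower, while CDH4 itself fell 18.4-fold. Around CTNND1 on chromosome 11, 4 of 15 were higher and 8 lower, and around CTNNA1 on chromosome 5, 4 of 19 were higher and 12 lower, while neither catenin was called. Around CTNNB1 on chromosome 3, 0 of 2 neighbours were higher and 1 lower, and CTNNB1 itself fell. No tested gene lay within 500 kb of CDH2, CDH11 or CDH19. Copy number was not measured here.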
